A study of Canis lupus familiaris with 6 samples.

Results

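Cells carry several systems that mend DNA, and 45 genes that act in them were followed here across 6 cell lines derived from osteosarcomas, malignant tumours of bone, of dogs. The genes were chosen by name, for their roles in homologous recombination, checkpoint signalling, the Fanconi anaemia pathway, mismatch repair, end joining, base excision repair, direct reversal and nucleotide excision repair. Earlier results of these data were known when the choice was made. Each gene was read from the brightest of those Affymetrix probe sets (groups of short probes for 1 transcript) that were annotated to it and to no other gene. Such a probe set was found for 42 of the 45 genes. PALB2, XRCC3 and BLM were not analysed here. Of the 42, 35 averaged at least 6.07 on the log2 scale over the 6 arrays, the median level of the non-control probe sets, and were tested. The other 7 lay below it and were only described. In the whole series 15115 genes had such a probe set and 9145 were tested.

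UWKOS1, UWKOS3 and UWKOS7 gave tumours once implanted in mice and are called tumorigenic (n = 3), while UWKOS2, UWKOS6 and UWKOS8 gave none and are called non-tumorigenic (n = 3). All were primary lines kept in the same serum-supplemented medium and untreated otherwise. RNA was taken from the cultures, not from mouse tumours, at a subconfluent density, and each line was hybridised once. No normal bone or reference line was part of the design, and the labels used here give no age, sex, breed or tumour site. The comparison asks which repair transcripts differed between lines that could and lines that could not form tumours. Values are deposited log2 signals, and each difference is the tumorigenic mean minus the non-tumorigenic mean on that scale. Because no line was arrayed more than once, a p-value measures the spread between these lines. Precision is limited by having 3 arrays per group.

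Repair is divided by the lesion. Homologous recombination copies an intact sister chromatid to mend a double-strand break or a broken replication fork, and it works mainly in cells that are replicating or have replicated their DNA. End joining seals broken ends directly at any stage of the cell cycle. The Fanconi anaemia proteins open cross-links between the strands, mismatch repair corrects copying errors, base excision repair replaces single damaged bases, and nucleotide excision repair cuts out bulky lesions such as those left by ultraviolet light. Checkpoint kinases hold the cell cycle while this happens. Osteosarcoma is known for extensively rearranged chromosomes, in dogs as in people.

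The arrays were alike in overall signal, with medians between 6.04 and 6.06. The collagen gene COL1A1 lay between 12.28 and 13.51 in every line and the bone regulator RUNX2 between 5.84 and 6.52, whereas 7 of the 14 osteoblast markers with a probe set, among them ALPL and IBSP, were below the filter. Of the 7 tested, 6 had a lower mean in the tumorigenic lines, and 1 fell, OMD, by 4.53 on the log2 scale (limma adjusted p = 0.0261). COL1A2 and SPARC differed by -0.93 and -0.88 with every tumorigenic line lower (limma adjusted p = 0.0702 and 0.0757). The protease CTSK, from the macrophage and osteoclast list, differed by -3.10, also with every tumorigenic line lower (adjusted p = 0.0692). Of 5 epithelial markers with a probe set only KRT7 was tested, and it rose by 0.81 (adjusted p = 0.0445). Its non-tumorigenic mean of 6.08 lay just above the filter. Below the filter, KRT8 had every tumorigenic line higher, KRT18 and EPCAM overlapped between the groups, and CDH1 differed by -0.12 with overlap. PTPRC, the leukocyte marker CD45, lay between 4.86 and 5.17, below the filter. Of 12 macrophage and osteoclast markers 5 were tested, namely CTSK, ACP5, CD14, CD68 and LAPTM5. The other 7 lay below the filter, among them CSF1R, CD163 and CALCR. LAPTM5 lay between 7.52 and 8.14 and CD68 between 5.71 and 7.68. The lymphocyte list had 2 of 8 markers tested. Of 11 tested fibroblast and stroma markers, 10 had a lower mean in the tumorigenic lines and 0 passed the test in limma, with 6 lower at an unadjusted p under 0.05. The part of these markers in the repair results was not tested. Control transcripts were read at both ends, and their mean 3′ minus 5′ log2 ratio, a sign of RNA or labelling quality, was 0.53, 0.59 and 0.81 in UWKOS1, UWKOS3 and UWKOS7. It was 0.62, 1.55 and 1.48 in UWKOS2, UWKOS6 and UWKOS8 (two-sided exact permutation p = 0.2, where 3 against 3 cannot go below 0.1). UWKOS6 and UWKOS8 therefore stood apart from the other 4 lines in this ratio, and repair results are given with and without them.

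Those of the 35 tested repair genes that passed the test were all higher in the tumorigenic lines. In the test across all 9145 genes (limma, Benjamini-Hochberg adjusted p under 0.05), 9 of the 35 tested repair genes rose and 0 fell. Those that rose were RAD51C, RAD51AP1, RAD54L and EXO1 of recombination, the checkpoint kinase gene CHEK1, FANCA and FANCG of the Fanconi pathway, MSH6 of mismatch repair and UNG of base excision repair. The 9 were 25.7% of the tested repair genes, beside 7.50% of all tested genes that rose and 4.63% that fell. The repair genes were chosen with earlier results of these data known, so such shares are a description. At an unadjusted p under 0.05, 21 repair genes were higher and 0 lower, beside 19.4% of all genes higher. The groups did not overlap for 20 of the 35, all with every tumorigenic line above every other line, beside 21.7% of all genes above and 16.6% below. The mean was higher in the tumorigenic lines for 32 of the 35, beside 52.6% of all genes. The median difference was 0.66 over the 35 tested repair genes, 0.65 over all 42 and 0.03 over all tested genes. Since these are bulk cultures, fewer cells of a kind and less RNA per cell cannot be told apart.

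BRCA1, RAD54B, EXO1 and UNG passed the brightness filter only through the tumorigenic lines, as did 3.12% of all tested genes, so that counts over tested genes are not counts over all 45. All 9 calls depended on UWKOS6, as did nearly all calls in the series. Without that line the same fit called 0 of the 35 repair genes and 12 of all 9145 genes (0.131%, against 12.1% with all lines). The 9 differences then lay between 0.84 and 2.14 (EXO1 1.88, CHEK1 1.73, MSH6 1.48), with adjusted p between 0.0713 and 0.146, and 17 repair genes were higher at an unadjusted p under 0.05. Leaving out another line called 4 repair genes without UWKOS2 (5.23% of all genes called) or UWKOS3 (3.89%), 5 without UWKOS8 (3.64%), 6 without UWKOS1 (6.43%) and 8 without UWKOS7 (14.4%). Over these 6 fits EXO1, CHEK1 and MSH6 passed in 5, FANCG in 4, RAD51AP1 and UNG in 2, and RAD51C, RAD54L and FANCA in 1. With the transcript-end ratio as a covariate 0 repair genes passed, and of all genes only 10 (GAPDH pair) and 11 (mean of 4 pairs). The 9 differences then lay between 1.04 and 2.42 and between 0.97 and 2.08, and 19 and 14 repair genes were higher at an unadjusted p under 0.05. The share of all genes at an unadjusted p was computed only with all 6 lines and no covariate. The counts of 17, 19 and 14 therefore have no background beside them.

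**Figure D1:**
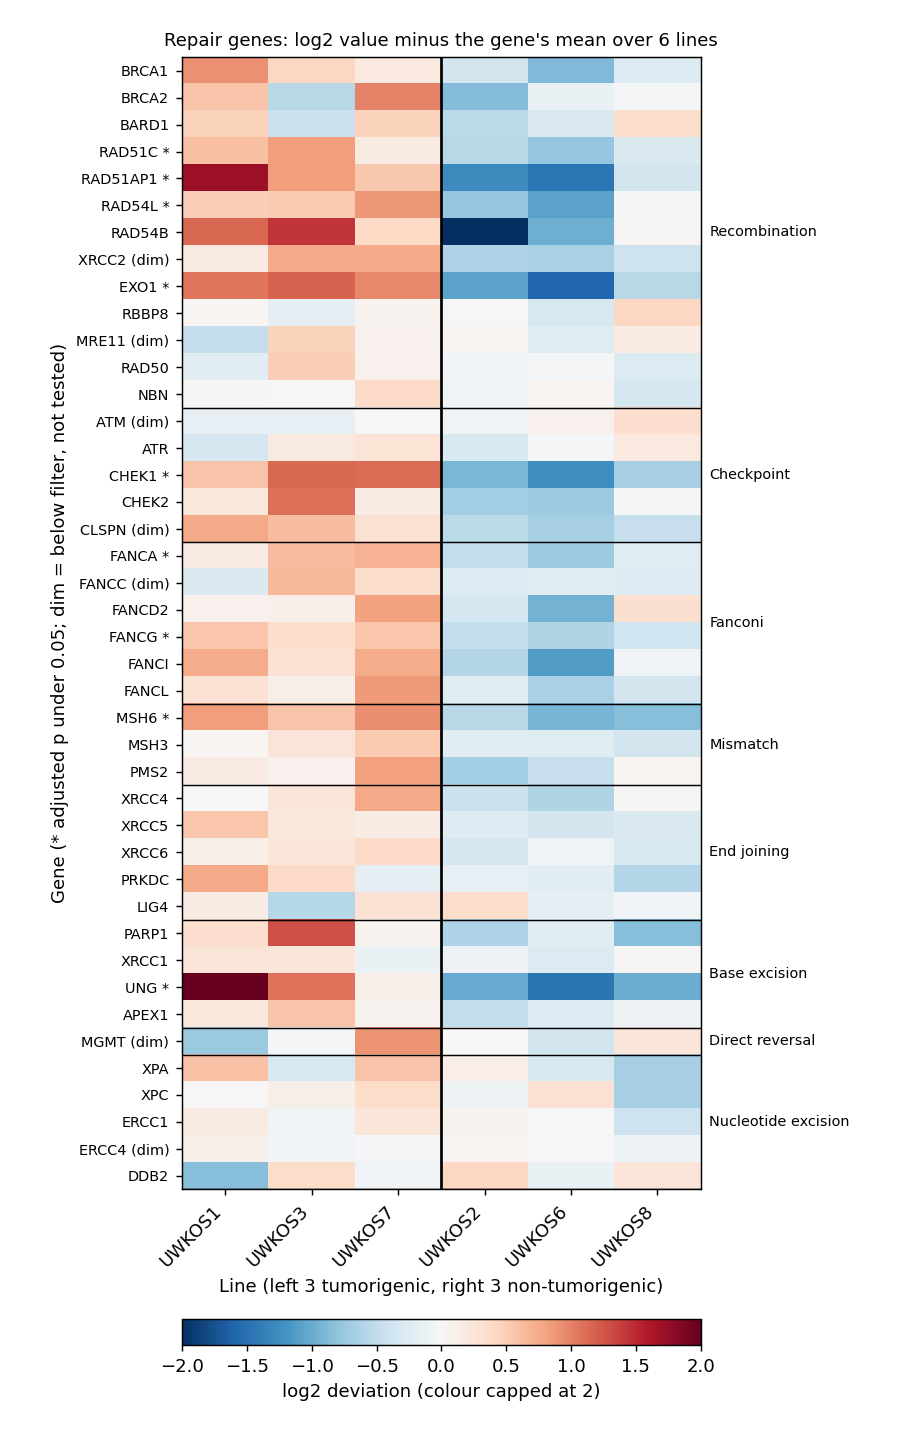
Log2 value of each of the 42 repair genes (rows, grouped by class) in each line (columns), minus the gene's mean over the 6 lines, with red above and blue below that mean. The 3 tumorigenic columns on the left are mostly red from recombination to mismatch repair, while nucleotide excision repair at the foot shows no such division.

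In homologous recombination 4 of 11 tested genes rose, beside 7.50% of all tested genes. They were RAD51AP1, RAD54L and RAD51C, which act in strand exchange, and the nuclease gene EXO1. RAD51AP1, which stimulates the pairing of a broken strand with a second DNA molecule, measured 10.11, 9.23 and 8.93 in UWKOS1, UWKOS3 and UWKOS7, and 7.13, 6.95 and 8.03 in UWKOS2, UWKOS6 and UWKOS8. The groups did not overlap, with UWKOS1 far up and UWKOS8 nearest to the tumorigenic lines. Its mean was 9.42 ± 0.61 against 7.37 ± 0.58 (SD, n = 3 each), a difference of 2.05 (SE 0.41, 4.15-fold, limma adjusted p = 0.0302).

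EXO1, the exonuclease that lengthens the single-stranded tails at a break and also serves mismatch repair, measured 8.09, 8.19 and 7.98 in the tumorigenic lines and 5.95, 5.43 and 6.47 in UWKOS2, UWKOS6 and UWKOS8. The tumorigenic lines lay within a narrow band, well above all others. Its difference of 2.14 (SE 0.28, 4.40-fold, limma adjusted p = 0.0153) was the largest in the class, and a further EXO1 probe set gave 2.28 (adjusted p = 0.0251). On each of these EXO1 probe sets the non-tumorigenic mean (5.95 and 5.39) lay below the brightness filter. Each was therefore tested only through the tumorigenic lines.

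RAD54L, a motor protein that remodels DNA during strand exchange, measured 8.08, 8.11 and 8.45 against 6.82, 6.52 and 7.56 in the same order of lines. Again UWKOS8 was the highest non-tumorigenic line, and the groups did not overlap. The difference was 1.25 (SE 0.29, 2.38-fold, limma adjusted p = 0.0435), which missed the threshold without the brightness filter (adjusted p = 0.0579). RAD54L also missed it after quantile normalization, centring on the 75th percentile or array weights (limma adjusted p = 0.0542, 0.0542 and 0.0563). RAD51C, a recombination factor that acts once the ends are trimmed, measured 9.33, 9.57 and 8.91 against 8.18, 7.95 and 8.45, a difference of 1.08 (SE 0.23, 2.11-fold, limma adjusted p = 0.0362). Both of its tested probe sets passed the threshold.

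The other recombination genes did not pass. RAD54B, a relative of RAD54L, measured 7.85, 8.14 and 7.10 against 4.69, 5.72 and 6.73. Its groups did not overlap, but the non-tumorigenic lines spread widely, and the difference of 1.98 (SE 0.54) had a limma adjusted p of 0.0629. BRCA1, the breast cancer susceptibility protein that directs breaks towards recombination, measured 7.37, 6.86 and 6.64 against 6.09, 5.57 and 6.18, also without overlap (difference 1.01, SE 0.26, adjusted p = 0.0559). BRCA2, the other breast cancer susceptibility protein of recombination, and BARD1, the partner of BRCA1, overlapped between the groups, with differences of 0.68 and 0.33 (limma adjusted p = 0.339 and 0.544).

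The factors that first meet and trim a break did not pass. RAD50 and NBN, subunits of the complex that senses and holds broken ends, differed by 0.24 and 0.27 on their brightest probe sets (limma adjusted p = 0.484 and 0.376), with overlapping groups. A further tested probe set of each had every tumorigenic line higher, with differences of 0.76 and 0.53 (adjusted p = 0.0790 and 0.174 at the probe-set level). RBBP8, which starts the trimming, differed by -0.06 (95% interval -0.60 to 0.48, adjusted p = 0.870), and a dimmer probe set by 0.85. MRE11, the nuclease subunit, was below the filter and differed by 0.03. XRCC2, a recombination factor below the filter, lay at 5.47 to 6.06 in the tumorigenic lines and 4.65 to 4.88 in the others. That difference of 1.13 passed only when the filter was dropped (limma adjusted p = 0.0327), a fit in which 6.62% of 15115 genes passed in either direction.

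**Figure D2:**
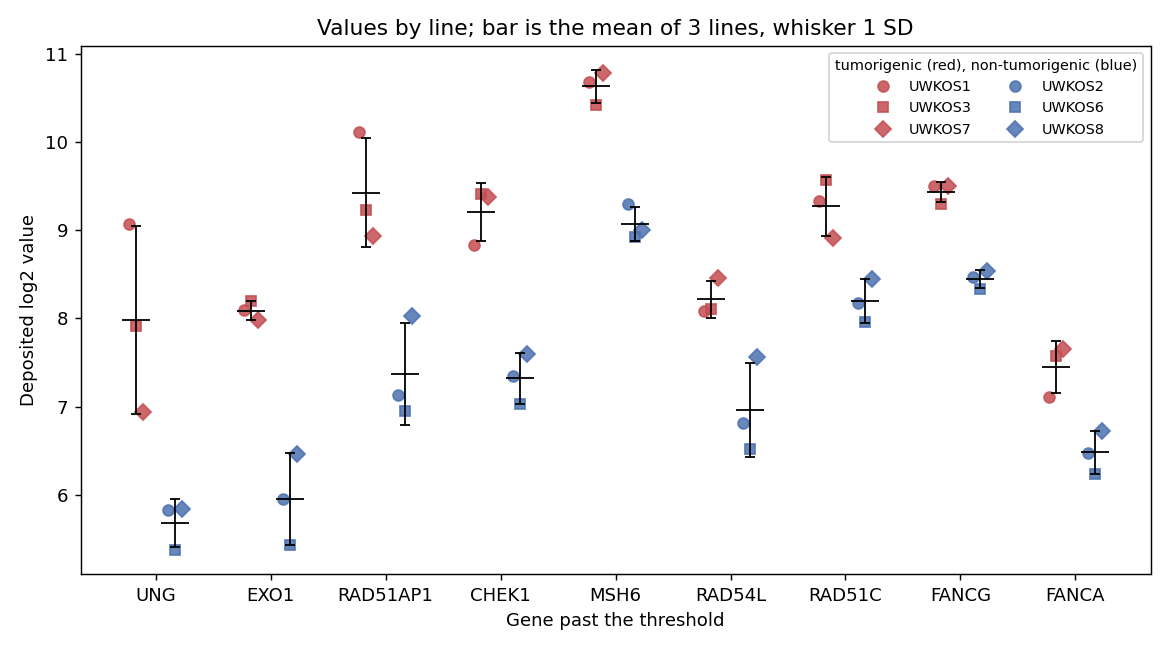
Deposited log2 values (vertical axis) of the 9 repair genes past the threshold (horizontal axis, ordered by difference), 1 point per line with the mean and SD of 3 lines in red for tumorigenic and blue for non-tumorigenic. Every red point lies above every blue point of its gene, and the red points of UNG spread most, from 6.94 to 9.07.

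Among the checkpoint genes CHEK1 rose. CHEK1, the kinase that answers stalled replication, measured 8.83, 9.41 and 9.37 in the tumorigenic lines and 7.34, 7.02 and 7.60 in UWKOS2, UWKOS6 and UWKOS8. No line came near the other group, and the difference was 1.88 (SE 0.24, 3.68-fold, limma adjusted p = 0.0153). ATR, the kinase that activates CHEK1, measured 8.04, 8.56 and 8.65 against 8.07, 8.36 and 8.58. Its groups overlapped fully, and its difference of 0.08 had a 95% interval from -0.47 to 0.64, beside 1.31 to 2.46 for CHEK1. The difference between the genes was not tested.

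CHEK2, which answers double-strand breaks through ATM, had every tumorigenic line above the others, with a difference of 0.97 (SE 0.33) that did not pass (limma adjusted p = 0.0994). CLSPN, the adaptor that brings CHEK1 to ATR, was dim, at 5.22, 5.08 and 4.77 against 3.93, 3.81 and 4.0. It did not overlap between the groups and passed only without the filter (difference 1.11, limma adjusted p = 0.0219). ATM itself was below the filter, with a difference of -0.23 (limma adjusted p = 0.398 without the filter) and 0.44 on its other probe set.

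In the Fanconi pathway 2 of 5 tested genes rose, beside 7.50% of all tested genes. Every tumorigenic line was above the others for 4 of 5, beside 21.7% of all tested genes. FANCG and FANCA belong to the core complex that attaches ubiquitin to its substrates. FANCG measured 9.50, 9.30 and 9.50 against 8.47, 8.34 and 8.54 and was nearly level within each group. Its difference of 0.98 (SE 0.15, 1.98-fold) had a limma adjusted p of 0.0188, and a further FANCG probe set gave 0.97 (adjusted p = 0.0246). FANCA measured 7.11, 7.58 and 7.65 against 6.48, 6.23 and 6.73, again without overlap. The FANCA difference of 0.97 (SE 0.22, 1.95-fold, limma adjusted p = 0.0413) missed the threshold after quantile normalization or centring on the 75th percentile (adjusted p = 0.0520 and 0.0574).

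FANCL, the ubiquitin ligase of the core complex, differed by 0.84 (limma adjusted p = 0.0689). Of its substrates, FANCI differed by 1.18 (adjusted p = 0.0514) and FANCD2 by 0.66 (adjusted p = 0.274), the last with overlapping groups. A further tested FANCD2 probe set had every tumorigenic line higher, with a difference of 1.04 (limma adjusted p = 0.0982 at the probe-set level). FANCC, a core subunit below the filter, differed by 0.48 with overlapping groups.

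All 3 mismatch repair genes had every tumorigenic line above the others, beside 21.7% of all tested genes. Of the 3, 1 rose, beside 7.50% of all tested genes. MSH6, which takes part in recognising single mispaired bases, measured 10.68, 10.42 and 10.78 in the tumorigenic lines and 9.29, 8.93 and 9.0 in UWKOS2, UWKOS6 and UWKOS8. Each group stayed within a narrow range and the gap between them was wide. The difference of 1.56 (SE 0.18, 2.94-fold) had a limma adjusted p of 0.0144, the smallest among the 35. MSH3, which takes part in recognising larger loops, differed by 0.55 (adjusted p = 0.0889), and PMS2, the nuclease that follows recognition, by 0.71 (adjusted p = 0.141). A further tested PMS2 probe set gave 0.85 and a dimmer one 1.36, both with every tumorigenic line higher, and a last one lay near the floor of the table, at 2.31 to 2.53.

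UNG, which removes uracil from DNA, was the base excision gene that rose, and it had the largest difference of the 35. It measured 9.07, 7.91 and 6.94 in UWKOS1, UWKOS3 and UWKOS7, and 5.83, 5.37 and 5.84 in UWKOS2, UWKOS6 and UWKOS8. The tumorigenic lines differed among themselves far more than the others did (SD 1.07 against 0.27). Every non-tumorigenic line lay below the brightness filter, and UNG was tested only because the tumorigenic lines raised its average above it. The difference was 2.30 (SE 0.52, 4.91-fold, limma adjusted p = 0.0404), and it missed the threshold without the filter (adjusted p = 0.0567). A dimmer UNG probe set below the filter differed by only 0.08, so the rise rests on 1 probe set.

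PARP1, which senses strand breaks, differed by 1.13 (limma adjusted p = 0.0828), with a further probe set at 1.63 (adjusted p = 0.0510). APEX1, the nuclease that cuts at a lost base, differed by 0.57 (adjusted p = 0.105) on its brightest probe set, while 2 of its 3 tested probe sets passed, at 0.96 and 1.45. Both genes had every tumorigenic line above the others. XRCC1, the scaffold that gathers the sealing enzymes, overlapped between the groups on its brightest probe set, with a difference of 0.25 (adjusted p = 0.388). Its other tested probe sets gave 0.40, with every tumorigenic line higher, and 0.42, with overlap (limma adjusted p = 0.164 and 0.234 at the probe-set level).

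None of the 5 end joining genes passed in limma, and 3 were higher at an unadjusted p under 0.05, beside 19.4% of all tested genes. XRCC5, the Ku80 subunit of the ring that caps broken ends, had the smallest p. It measured 9.23, 8.88 and 8.82 against 8.41, 8.30 and 8.38, with no overlap and the non-tumorigenic lines almost level. Its difference of 0.61 had a 95% interval from 0.21 to 1.02 (limma adjusted p = 0.0629). XRCC6, the Ku70 subunit, differed by 0.48 on its brightest probe set (adjusted p = 0.0942), and 3 of its 5 tested probe sets passed, with differences over the 5 from 0.48 to 1.25. PRKDC, the kinase that Ku recruits, and XRCC4, the partner of the ligase, differed by 0.64 and 0.66 with overlapping groups (adjusted p = 0.163 and 0.144). Of the 4 probe sets of PRKDC only that 1 was bright enough to test. LIG4, the ligase, differed by -0.09 (adjusted p = 0.849).

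Nucleotide excision repair showed no gene past the threshold in limma, 0 at an unadjusted p under 0.05, and overlapping groups for every member on its brightest probe set. XPA, which verifies the lesion, had the smallest p and measured 8.56, 7.66 and 8.54 against 8.11, 7.66 and 7.31. Its difference of 0.56 had a 95% interval from -0.22 to 1.35 (limma adjusted p = 0.289), which leaves room for a change as large as that of several genes that rose. XPC, which finds the distortion, and ERCC1, part of the nuclease that cuts on the 5′ side, differed by 0.32 and 0.22 (adjusted p = 0.451 and 0.478). The dimmer probe sets of XPC had every tumorigenic line higher, with differences of 0.45 (adjusted p = 0.110 at the probe-set level) and, below the filter, 0.65.

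DDB2, which detects ultraviolet damage and is a textbook p53 target, had the lowest difference of the 35. It measured 6.28, 7.51 and 7.08 in the tumorigenic lines and 7.55, 7.0 and 7.40 in UWKOS2, UWKOS6 and UWKOS8, with UWKOS1 lowest and the groups overlapping. The difference was -0.36 (95% interval -1.18 to 0.45, limma adjusted p = 0.503), and its 3 probe sets ran from -0.36 to -0.08. ERCC4, the partner of ERCC1, was below the filter in all lines and differed by 0.02.

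MGMT, which reverses alkylated guanine directly and is known as a determinant of the response to alkylating drugs, was the sole direct reversal gene. It lay below the filter on average and was not tested. Its values were 5.31, 6.0 and 6.95 in UWKOS1, UWKOS3 and UWKOS7, and 6.05, 5.67 and 6.28 in the others, so that the tumorigenic lines held both the lowest and the highest value. Its difference was 0.08.

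**Figure D3:**
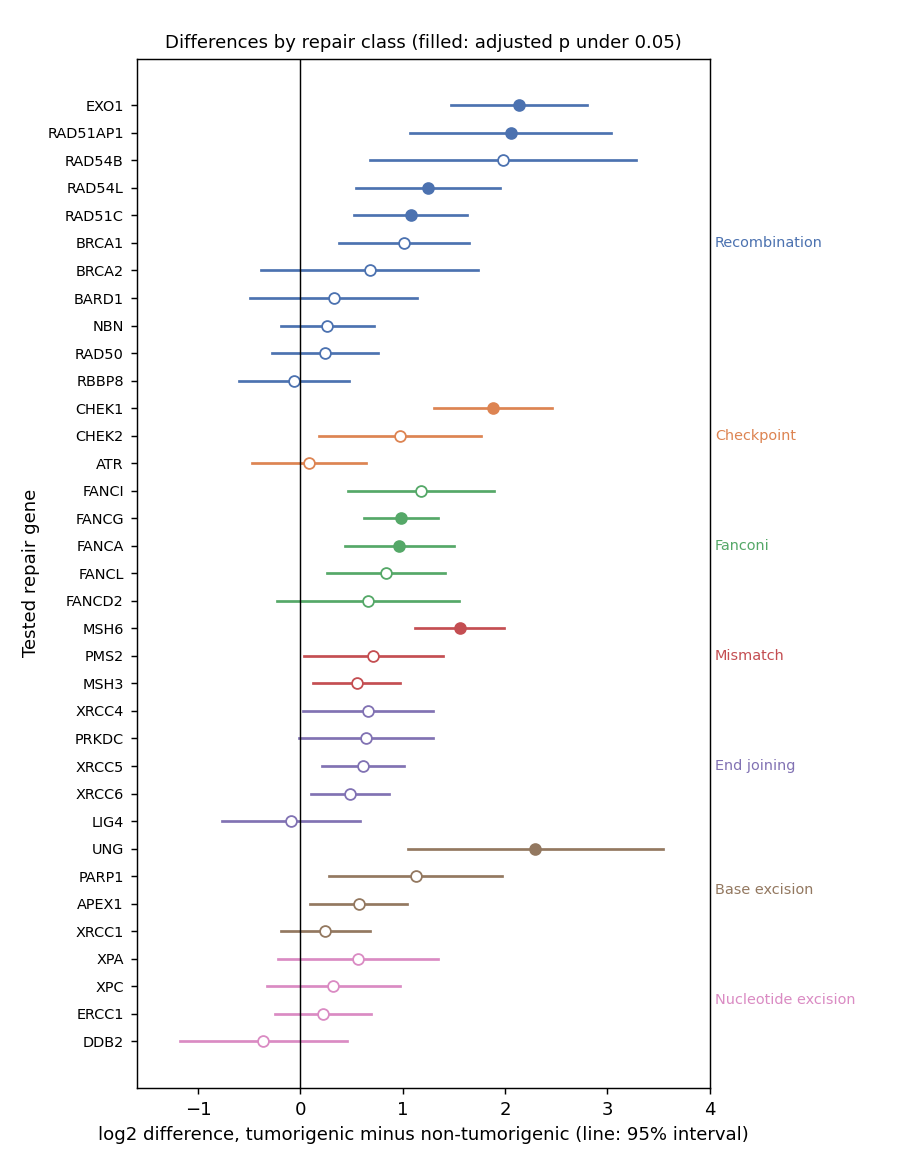
Log2 difference, tumorigenic minus non-tumorigenic (horizontal axis), with its 95% interval for each of the 35 tested repair genes, coloured by class and filled where the adjusted p is under 0.05. Of the 35 points, 32 lie above 0, and RBBP8, LIG4 and DDB2 lie below it.

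The classes can be set side by side by their median difference, as a description. Recombination had a median of 1.01 over 11 tested genes, checkpoint 0.97 over 3 and the Fanconi pathway 0.97 over 5. Base excision repair had 0.85 over 4, mismatch repair 0.71 over 3, end joining 0.61 over 5 and nucleotide excision repair 0.27 over 4. Within recombination alone the differences ran from -0.06 to 2.14, a range wider than that between the class medians. Without probe sets named as shared between transcripts, only ATR was left of the checkpoint class, so its 0.084 is the difference of that gene. Under an upper-quartile filter, which leaves out dimmer genes, the recombination median was 0.33. Base excision repair had 0.41 without shared probe sets, where only XRCC1 and APEX1 were left and UNG and PARP1 were not tested. Mismatch repair had 1.08 with either transcript-end covariate, and nucleotide excision repair between 0.043 and 0.44 over all alternatives.

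By line, the median deviation of the 35 genes from their own means was 0.30, 0.29 and 0.38 in UWKOS1, UWKOS3 and UWKOS7, and -0.43, -0.37 and -0.27 in UWKOS2, UWKOS6 and UWKOS8. UWKOS7 held the highest value for 15 of the 35 genes and the lowest for 0, beside 16.6% and 13.7% of all tested genes. UWKOS6 held the lowest value for 18 of the 35, beside 19.3% of all tested genes, and for all 9 genes that rose. The recombination genes deviated by -0.78 in UWKOS6, -0.55 in UWKOS2 and -0.27 in UWKOS8.

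A list of 43 replication and mitosis genes was set beside them. Their median difference was 1.34, and 33 were higher and 0 lower at an unadjusted limma p under 0.05, beside 19.4% of all genes higher. After adjustment 18 rose and 0 fell, beside 7.50% and 4.63% of all tested genes. Those that rose included BIRC5, an inhibitor of apoptosis needed in mitosis (1.45, limma adjusted p = 0.0160). Others were the helicase subunit MCM3 (2.11, adjusted p = 0.0175) and the polymerase subunit POLE2 (1.91, adjusted p = 0.0177). By line that list deviated by 0.62, 0.67 and 0.64 in the tumorigenic lines and by -0.71, -1.22 and -0.06 in UWKOS2, UWKOS6 and UWKOS8. Like the recombination genes, it was lowest in UWKOS6 and least low in UWKOS8. Its part in the repair differences was not tested.

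**Figure D4:**
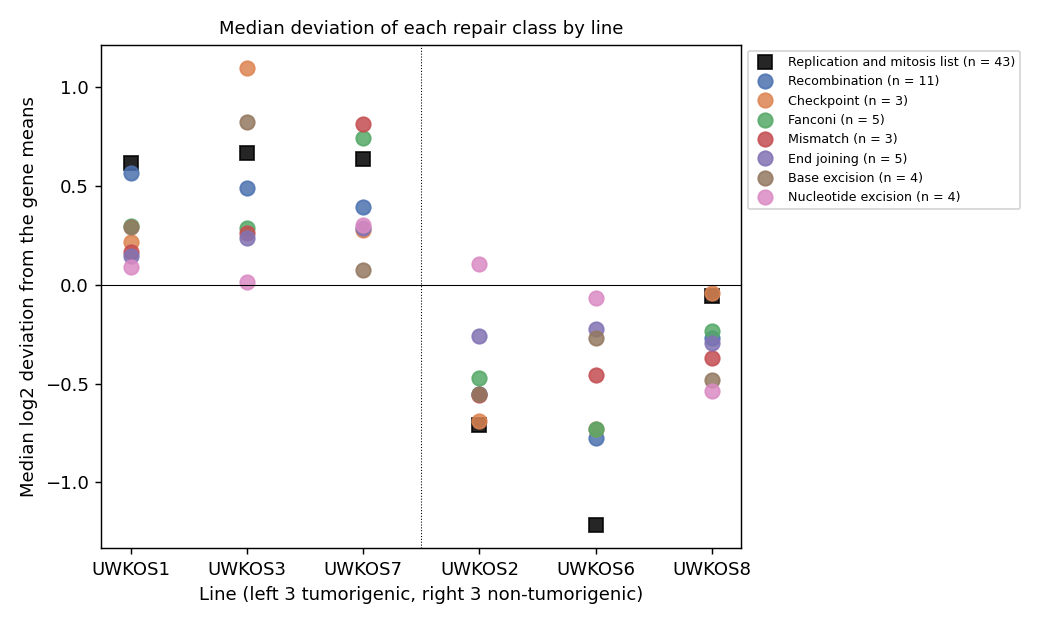
Median log2 deviation from each gene's own mean (vertical axis) for each repair class and for 43 replication and mitosis genes (black squares) in each line (horizontal axis). All medians of the tumorigenic lines lie above 0, the replication list is lowest in UWKOS6 at -1.22, and nucleotide excision repair is the class above 0 in UWKOS2.

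Tested genes activated by p53, the damage-responsive regulator, showed no common direction. Of 14 tested, 7 had a higher and 7 a lower mean in the tumorigenic lines, and the median difference was -0.02. Over all 19 with a probe set the median was -0.20. Among the 5 below the filter 1 had a higher mean, and FAS and SESN2 were lower in every tumorigenic line. In limma 0 rose and 1 fell, with 1 higher and 3 lower at an unadjusted p under 0.05. MDM2, the ligase that degrades p53, fell by 1.57 on the log2 scale (limma adjusted p = 0.0499) and missed the threshold without the filter (adjusted p = 0.0707).

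Other genes of the same systems were counted from a wider list. Of 105 tested, 19 rose and 3 fell (18.1% rose, beside the 7.50% of all tested genes), with a median difference of 0.44. Recombination gave 9 of 30 higher and 0 lower, checkpoint signalling 3 of 14, the Fanconi pathway 4 of 8 with 1 lower, mismatch repair 0 of 2 with 1 lower, base excision repair 2 of 17 and nucleotide excision repair 1 of 13 with 1 lower. None of 6 further end joining genes passed in limma (1 higher and 2 lower at an unadjusted p under 0.05), and 0 of 15 direct reversal and translesion genes passed (4 higher and 1 lower unadjusted). Without UWKOS6 this count of 19 was 0, in a fit that called 0.131% of all genes. It was 6 without UWKOS3, 7 without UWKOS8 and 9 without UWKOS1 or UWKOS2, fits that called 3.89%, 3.64%, 6.43% and 5.23% of all genes.

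In recombination the smallest p-values belonged to the helicase RECQL4 (difference 1.40, limma adjusted p = 0.0132), the junction-cutting nuclease GEN1 (1.34, adjusted p = 0.0188) and the recombination factor RAD51B (1.01, adjusted p = 0.0228). SMC6, SMC5 and NSMCE4A, subunits of a single ring complex that handles joined chromatids, rose by 1.19, 0.88 and 1.03, and were picked out after their values were seen. NSMCE1 of the same complex differed by -0.25 (adjusted p = 0.472).

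Checkpoint genes that rose were the phosphatase CDC25A (1.63, limma adjusted p = 0.0196), the ubiquitin ligase RNF8 (1.01, adjusted p = 0.0247) and ATRIP, the partner of ATR (0.63, adjusted p = 0.0471). The difference of ATR was 0.08, and whether the partners differ in response was not tested.

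The Fanconi genes beside FANCA and FANCG included CENPS (1.81, limma adjusted p = 0.0116) and FANCM (2.28, adjusted p = 0.0321), which bind DNA together. USP1, which takes ubiquitin off FANCD2 and FANCI, rose by 1.58 (adjusted p = 0.0162), whereas WDR48, the cofactor that activates USP1, fell by 0.97 (adjusted p = 0.0455). The call of WDR48 was lost without the brightness filter (adjusted p = 0.0566).

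In the excision pathways TDP1, which frees trapped topoisomerase, rose by 1.32 (limma adjusted p = 0.0187), APTX, which repairs aborted ligations, by 0.88 (adjusted p = 0.0330) and MNAT1, of the kinase that joins the repair helicase complex, by 0.96 (adjusted p = 0.0234). MLH3, a mismatch repair gene, fell by 0.64 (adjusted p = 0.0438). CETN2, which stabilises XPC, fell by 0.59 (adjusted p = 0.0454).

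At the level of single probe sets, those past the threshold were all higher in the tumorigenic lines. Of 77 probe sets, 57 passed the filter, and 17 of these rose and 0 fell in limma, beside 7.28% of all 21462 tested probe sets that rose and 4.74% that fell. Probe sets of 1 gene share its transcript and are not independent of each other.

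The 9 differences stayed between 0.97 and 2.30 without UWKOS6 and UWKOS8, the lines with the high transcript-end ratios. With UWKOS2 as the only non-tumorigenic line, EXO1 differed by 2.13, CHEK1 by 1.86, RAD51AP1 by 2.30, UNG by 2.15, RAD54L by 1.40 and MSH6 by 1.34. RAD51C differed by 1.09, and FANCA and FANCG each by 0.97. RAD54B, not among the 9, went from a difference of 1.98 to 3.0, and UWKOS2 was its lowest line. Of the 35 genes 32 kept a positive difference. That fit assumes that UWKOS2 varies like the tumorigenic lines, so only the sizes of the differences are read from it.

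**Figure D5:**
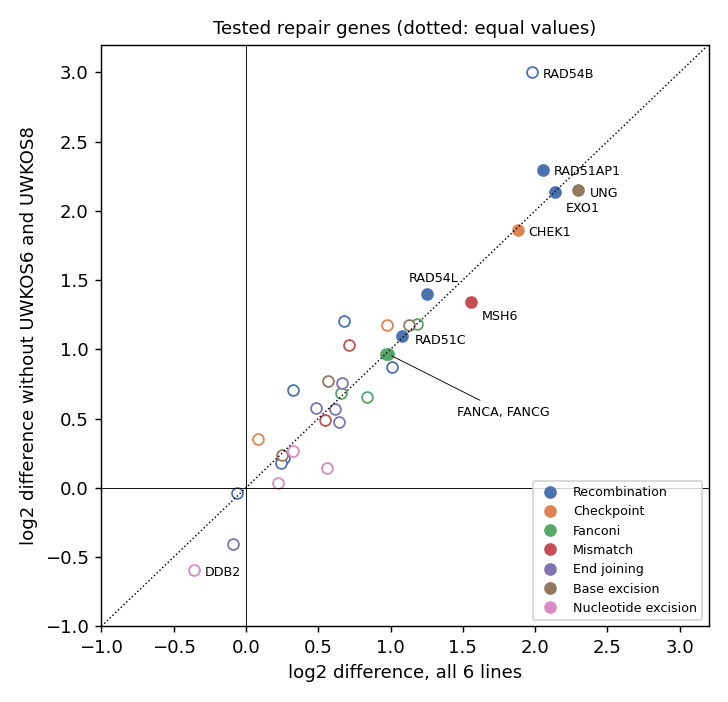
Log2 difference of each of the 35 tested repair genes with all 6 lines (horizontal axis) against that without UWKOS6 and UWKOS8 (vertical axis), coloured by class and filled for the 9 past the threshold. The 9 lie close to the dotted line of equal values, and RAD54B moves furthest, from 1.98 to 3.0.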

How the data were processed

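Total RNA of 6 lines was labelled with biotin and hybridised to Affymetrix canine arrays, 1 per line, per the labels' protocols. The deposited table holds log2 values, and the submitters' processing notes name MAS5 alone, without a version. The values ran from 1.97 to 14.83, which as powers of 2 fits a scanner's range. The summary method and normalization behind them are not given in the sources used here. Array medians (6.04 to 6.06) and 75th percentiles (8.04 to 8.19) were close, and no value lay below 1.97, which is atypical of MAS5 signals, so MAS5 may not have made these values. Folds depend on that method. They were used as deposited, with 0 columns left out.

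Of 43035 rows, 111 were controls, 29254 carried 1 gene symbol, 439 carried several and 13231 carried none in the platform annotation used, some of which may be outdated. Gene identifiers gave current symbols from RefSeq's table for UU_Cfam_GSD_1.0 for 27680 probe sets, and 1574 kept their symbol. The brightest probe set stood for each gene, and genes at or above the median of the non-control probe sets (6.07) were tested.

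Groups followed the tumorigenicity label. The comparison used limma 3.58.1 under R 4.3.3 (lmFit, then eBayes, without covariates), Benjamini-Hochberg adjustment over all tested genes, a threshold of 0.05 and 95% intervals. For the control ratios an exact permutation test, two-sided, was used. Repair genes and lists were chosen with earlier results of these data known.

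Values in every line are given for each repair gene past the threshold and for the gene of smallest p in each class with none. RAD54B, BRCA1, ATR, CLSPN, DDB2 and MGMT were added after their values were seen. From the wider lists, up to 3 genes per class and direction were named by smallest p. Alternatives covered the filter, normalization, centring, variance model, probe set choice, transcript-end covariates and lines left out. On simulated data over 9145 genes, this comparison recovered 40% of changes of 1 on the log2 scale, 82% of 2, 92% of 4 and 98% of 6 (50 each), with 3 false calls. The simulation raised only those genes and drew noise separately for each gene. In the data 12.1% of genes were called, in both directions, and nearly all calls depended on UWKOS6. The simulated rates therefore cannot be carried over to these data. Figures were drawn with matplotlib 3.10.9.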

Additional observations from a re-analysis of the deposited data

How the results depend on the processing

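No paired analysis was possible because the labels number no replicates, and numbers in accession order pair nothing. Over the 19 alternatives, 32 of the 35 repair genes kept the sign of their difference wherever they were tested (31 above 0, and DDB2 below), the exceptions being ATR, LIG4 and RBBP8. The count of repair genes that fell was 0 in each, and 1 or more rose in 15 of them. The 9 that rose became 5 under an upper-quartile filter, where 10.1% of all genes rose. They became 5 without probe sets named as shared (_s_at, _x_at), where 6.44% of all genes rose. Those of the 9 missing from either fit were not tested in it, and the others all passed. After centring on hybridization controls 14 repair genes rose, beside 12% of all genes. With a transcript-end covariate (GAPDH pair or mean of 4 pairs) 0 rose. With those covariates 19 and 14 were higher at an unadjusted p under 0.05, without a computed share of all genes to set beside them. After adjustment only 10 and 11 of all genes passed. Leaving out 1 line gave 0 to 8. Without a filter the count was again 9, with XRCC2 and CLSPN in place of RAD54L and UNG.

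The median over the repair genes, 0.66, was 0.58 with 75th-percentile centring, 0.83 with hybridization centring (which moved the median of all genes from 0.03 to 0.20), 0.81 with probe sets averaged per gene, 0.59 without shared probe sets, 0.76 without UWKOS6 and UWKOS8, 0.90 and 0.77 with the GAPDH and mean covariates, and 0.62 to 0.84 with 1 line left out. End joining was 0.55 with the upper-quartile filter, quantile normalization or no shared probe sets, 0.54 with 75th-percentile and 0.78 with hybridization centring, 0.48 and 0.52 with the GAPDH and mean covariates, and 0.45 to 0.61 with 1 line left out. Mismatch repair was 1.03 without UWKOS6 and UWKOS8, 1.08 with either covariate, and 0.48 to 0.92 with 1 line left out. Base excision repair was 1.18 with the mean of probe sets, 0.41 without shared ones (XRCC1 and APEX1 alone), and 0.60 to 1.02 with 1 line left out. Checkpoint was 0.084 without shared probe sets (ATR alone) and 0.67 to 1.20 with 1 line left out. Recombination was 0.33 under the upper-quartile filter, which leaves out dimmer genes, and 0.80 to 1.13 with 1 line left out. Nucleotide excision was 0.043 with the GAPDH covariate and ran from 0.071 to 0.41 and Fanconi from 0.84 to 1.03 with 1 line left out.

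The 19 other repair genes that rose became 12 under the upper-quartile filter, 11 without shared probe sets and 0 without UWKOS6 and UWKOS8 or with either covariate, and 0 to 19 with 1 line left out. The 3 that fell became 0 with hybridization centring, without UWKOS6 and UWKOS8 or with either covariate, 1 with an intensity trend and 6 with array weights, and 0 to 3 with 1 line left out. The 18 replication genes became 10 without shared probe sets, 0 without UWKOS6 and UWKOS8 or with either covariate, and 0 to 22 with 1 line left out. MDM2, the 1 p53 target that fell, was not called (0) without a filter, with robust eBayes, array weights, the mean of probe sets, no shared probe sets, without UWKOS6 and UWKOS8 or with either covariate, and 0 to 1 passed with 1 line left out, in each direction. The 17 probe sets of repair genes became 0 to 16 with 1 line left out. The cause of these shifts was not tested, except that filters and left-out probe sets or lines leave fewer genes or arrays.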

Other observations

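Of the 16 repair genes with several tested probe sets, the brightest had the smallest absolute difference in 12, beside 45.5% of the 4678 genes with several. The median absolute difference of the 16 was 0.57 for the brightest and 0.86 for the others. This comparison was chosen after the data were seen, and the part of signal brightness in it was not tested.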
